A study of Mus musculus with 26 samples.

Results

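The subunits of complement C1q are described here in 26 mouse samples, each measured on its own array. They are encoded by C1qa, C1qb and C1qc, 3 of the 18194 genes that the array's annotation names. Every probe set (a group of short probes for 1 transcript) annotated to these genes was taken, which gave 5: 1417381_at for C1qa, 1417063_at, 1434366_x_at and 1437726_x_at for C1qb, and 1449401_at for C1qc. An ending of _x_at marks a probe set whose probes can also match other transcripts. All 5 passed the filter on dim probe sets, which kept 27308 probe sets naming 12887 genes.

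The samples fall into 4 groups. The controls are 3 primary osteoblast cultures, bone-forming cells differentiated in vitro from wild-type cells. The other groups are 15 primary osteosarcomas (bone tumours) of a mouse model, 4 osteosarcoma cell lines, and 4 secondary tumours. For the tumours and lines the labels used here give no genotype, sex or age, and they do not name the alleles or the promoter behind the model. Of the secondary tumours, 3 carry the term secondary transplant in their labels, and all 4 have titles beginning OPflR, an abbreviation the labels do not expand. The remaining secondary tumour, number 66, has a title that names a cell line and a source that names tumour tissue grown from such a line, so results on secondary tumours are also given without it. Tumours and lines carry numbers, and the numbers 29, 64, 66 and 94 occur both in a primary and in a secondary tumour, while 176, 179 and 182 occur both in a primary tumour and in a cell line. Nothing in the labels says how many animals or cultures stand behind a group, so p-values measure the spread between these samples.

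C1q is the recognition molecule of the classical complement pathway. Its A, B and C chains assemble into bundles with collagen-like stalks and globular heads, which bind antibodies in immune complexes and molecules on dying cells and microbes. Binding activates the attached proteases C1r and C1s, which cleave C4 and C2. Most complement proteins in plasma come from the liver, whereas C1q is made mainly by macrophages, dendritic cells and microglia, and for this reason its transcripts are often used as markers of tissue macrophages, including those in tumours.

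The 3 genes lie beside each other on mouse chromosome 4, in the order C1qb, C1qc, C1qa in the RefSeq annotation of GRCm38.p6, with no other gene between them. Because the members varied together across tumours, the bases just before the start of transcription are shown for the genes that the RefSeq promoter table holds, which are C1qb and C1qc. These are 250 bases each, read 5′ to 3′ on the gene's own strand, which is the minus strand for both: chr4:136886201-136886450 for C1qb and chr4:136892915-136893164 for C1qc. Capitals mark matches to the motifs searched.
C1qb: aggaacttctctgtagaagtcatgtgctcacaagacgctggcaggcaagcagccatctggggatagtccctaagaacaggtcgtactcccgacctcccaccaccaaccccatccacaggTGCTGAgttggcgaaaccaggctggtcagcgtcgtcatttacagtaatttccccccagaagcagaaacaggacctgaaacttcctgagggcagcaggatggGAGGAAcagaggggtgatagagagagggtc
C1qc: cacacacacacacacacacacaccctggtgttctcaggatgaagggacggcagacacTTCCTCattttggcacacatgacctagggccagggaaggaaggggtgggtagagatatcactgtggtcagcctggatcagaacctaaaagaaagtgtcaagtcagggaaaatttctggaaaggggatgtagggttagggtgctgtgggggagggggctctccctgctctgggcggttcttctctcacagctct
The motifs searched on both strands were GAGGAA (the type of site bound by the macrophage ETS factor PU.1), TGCTGA (a partial Maf recognition element), TGANTCA (AP-1) and GAAANNGAA (interferon-response type). The C1qb stretch held GAGGAA 30 to 25 bases before the start and TGCTGA 131 to 126 bases before it. The C1qc stretch held GAGGAA on the opposite strand, printed as TTCCTC, 193 to 188 bases before the start. Of 32851 promoter stretches of this length, 23.3% held GAGGAA, 16.1% TGCTGA, 6.75% TGANTCA and 7.13% GAAANNGAA. A match of letters is a description of the sequence and not of binding.

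Values are array intensities on a linear scale, whose medians over all probe sets lay between 44.4 and 58.8 on the 26 arrays. Intensities below 12.5, the 20th percentile of all values, were raised to that floor before log2 was taken, so the lowest possible log2 value is 3.64. A probe set was called when limma's test over all 27308 kept probe sets gave a Benjamini-Hochberg adjusted p under 0.05 and a fold of at least 2. Intensities of different probe sets are not compared with each other, since probes differ in brightness. The arrays form distinct sets by the ratio of the bacterial control transcripts bioB to bioC, which was 0.418 to 0.52 on 14 arrays and 1.15 to 1.28 on 12. The low-ratio set held all 3 osteoblast cultures, all 4 secondary tumours and 7 primary tumours (12, 29, 64, 66, 87, 94 and 119), and the high-ratio set held all 4 cell lines and 8 primary tumours. The ratio of the 5′ to the 3′ Gapdh control, a measure of how complete the labelled transcripts are, was 0.656 to 0.845 in the primary tumours of the low-ratio set and 0.909 to 1.03 in those of the high-ratio set. The control cultures expressed their label's markers: Sp7, Alpl, Ibsp and Col1a1, genes of bone-forming cells, had mean log2 intensities of 8.53, 9.98, 12.25 and 13.88. The 4 fat-cell markers on the array were also high in these cultures, with a mean log2 level of 11.91 to 12.

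All 3 subunits were strongly expressed in every tumour and low in every cultured sample, at intensities of 3.47 to 26.7 over the 5 probe sets. For C1qa, the osteoblast cultures had intensities of 4.89, 4.83 and 10.2, all under the floor. The cell lines 176, 179, 182 and 213 had C1qa intensities of 11.7, 13.6, 17.1 and 3.47. In the primary tumours C1qa ran from 605 through a median of 1430 to 3290, and in secondary tumours 29, 64, 66 and 94 it was 1910, 2180, 771 and 636. The tumour and culture values did not overlap, and the lowest tumour stood 35.4-fold above the highest cultured sample.

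C1qb, which encodes the B chain, showed the same separation on each of its 3 probe sets. On 1434366_x_at, its brightest probe set, the osteoblast cultures had intensities of 19.7, 16.3 and 18.9. The cell lines 176, 179, 182 and 213 had 16, 22.7, 17.5 and 19.2 on it. The primary tumours ran from 585 through a median of 1100 to 3420, and secondary tumours 29, 64, 66 and 94 had 1360, 1790, 648 and 569. The lowest tumour was 25.1-fold above the highest cultured sample on 1434366_x_at, 21.3-fold on 1417063_at and 7.92-fold on 1437726_x_at.

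C1qc, which encodes the C chain, had intensities of 26.1, 15.4 and 17.8 in the osteoblast cultures. In the cell lines 176, 179, 182 and 213 it had 8.37, 15.4, 9.13 and 9.95. The primary tumours ran from 480 through a median of 1220 to 3000, and secondary tumours 29, 64, 66 and 94 had 1700, 1820, 713 and 584. The lowest tumour was 18.3-fold above the highest cultured sample. On all 5 probe sets, each of the 7 cultured samples lay below its own array's median intensity and each of the 19 tumours above it. Of all 27308 kept probe sets, 5.32% had every tumour above every cultured sample, and 0.509% had every cultured sample below and every tumour above its array's median.

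**Figure D1:**
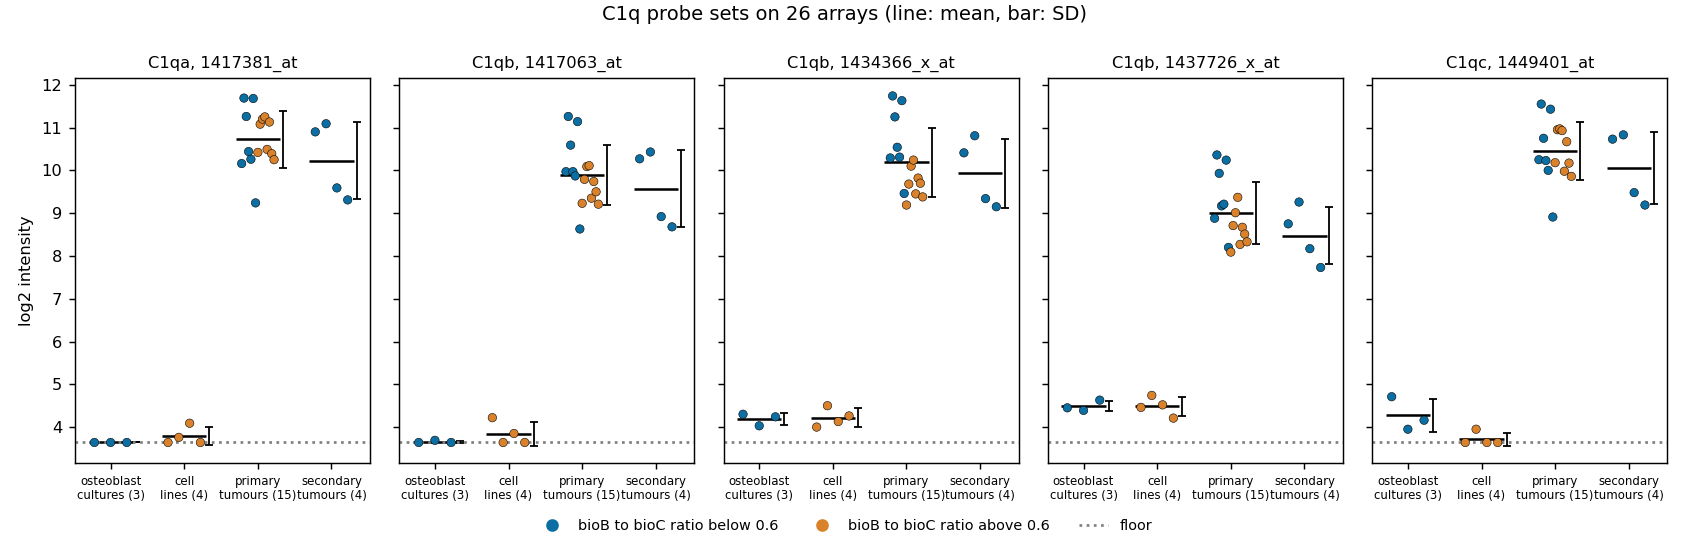
Log2 intensity of the 5 C1q probe sets (vertical axis) in the 4 sample groups (horizontal axis, number of samples in parentheses). Points are samples, coloured by the bioB to bioC ratio of their array, horizontal lines are group means, bars are SD, and the dotted line is the floor at 3.64. On every probe set the 19 tumours sit above all 7 cultured samples.

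The comparison of primary tumours with osteoblast cultures sets whole tissue against cells differentiated in vitro. No normal tissue was measured, so tumour against normal cannot be told apart here from tissue against culture. All 5 C1q probe sets were called higher in the primary tumours, against 11.0% of all kept probe sets. C1qa was 10.73 ± 0.67 (log2, SD, n = 15) in the tumours and at the floor of 3.64 in all 3 cultures, a difference of at least 136-fold (limma, adjusted p = 2.68e-13). C1qc differed by 6.18 ± 0.38 (log2, SE), or 72.7-fold (limma, adjusted p = 5.12e-12). C1qb differed by 6.24 ± 0.40, 5.99 ± 0.43 and 4.51 ± 0.38 (log2, SE) on 1417063_at, 1434366_x_at and 1437726_x_at, or at least 75.6-fold (2 of the 3 cultures were at the floor), 63.7-fold and 22.7-fold (largest limma adjusted p = 1.49e-09). In whole tissue, more cells of a type and more RNA per cell cannot be told apart.

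Secondary tumours were also far above the osteoblast cultures. All 5 probe sets were called higher, against 12.9% of all probe sets. The log2 differences were 6.59 ± 0.46 (SE) for C1qa, whose cultures were all at the floor, 5.92 ± 0.48, 5.74 ± 0.52 and 3.99 ± 0.46 for the C1qb probe sets in the order above, and 5.78 ± 0.46 for C1qc. Without secondary tumour 66 they were 6.80, 6.14, 5.93, 4.09 and 5.98, and all 5 were called.

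Cell lines and osteoblast cultures were not distinguished by C1q. None of the 5 probe sets was called between them, where 7.35% of all probe sets were, and limma gave 0 of the 5 an unadjusted p under 0.05. The differences, line minus osteoblast on the log2 scale with their 95% confidence intervals, were 0.14 (-0.80 to 1.09) for C1qa, 0.18 (-0.81 to 1.17), 0.03 (-1.03 to 1.10) and -0.01 (-0.96 to 0.94) for the C1qb probe sets and -0.56 (-1.51 to 0.40) for C1qc. The lowest limma adjusted p was 0.48, for C1qc, whose values in the 2 groups did not overlap, although the nearest are both 15.4 to the digits given. With the array set as a term in the fit the largest difference was 1.08, on 1434366_x_at (limma, adjusted p = 0.169), and none was called. All cell line arrays were of the high-ratio set and all osteoblast arrays of the low-ratio set, so those groups can be separated from the set only through the primary tumours. Values this close to the floor give no measure of a change.

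Set against the cell lines, both kinds of tumour had higher C1q on all 5 probe sets. In primary tumours the log2 differences were 6.95 ± 0.34 (SE) for C1qa, 6.06 ± 0.35, 5.96 ± 0.38 and 4.52 ± 0.34 for the C1qb probe sets, and 6.74 ± 0.34 for C1qc, which are at least 123-fold, at least 66.8-fold, 62.4-fold, 22.9-fold and at least 107-fold. The folds given as at least are those where 2 or 3 of the 4 lines were at the floor. The background share called higher was 10.8%. Secondary tumours exceeded the lines by 6.44, 5.74, 5.70, 4.00 and 6.34 on the log2 scale in the same order, where 12.9% of all probe sets were called higher. These comparisons share their tumour samples with those against osteoblast cultures and are not separate evidence.

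Secondary and primary tumours were not separated by C1q. None of the 5 probe sets was called, and limma gave 0 of them an unadjusted p under 0.05. Of all 27308 probe sets 2, or 0.00732%, were called, and 2706 had an unadjusted p under 0.05. The differences, secondary minus primary on the log2 scale with 95% confidence intervals, were -0.51 (-1.20 to 0.19) for C1qa, -0.32 (-1.05 to 0.41), -0.26 (-1.04 to 0.53) and -0.52 (-1.22 to 0.18) for the C1qb probe sets and -0.40 (-1.10 to 0.30) for C1qc (limma, adjusted p = 0.613 to 0.835). The intervals do not exclude a fall to 0.435 of the primary level for C1qa. With secondary tumour 66 left out, the 5 differences were -0.29, -0.10, -0.06, -0.42 and -0.21.

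Secondary tumours resembled the primary tumour of the same number across the array (correlations of deviations from the group mean of 0.233 to 0.625), so C1q was also compared within pairs. For C1qa, secondary minus primary was -0.35, 0.65, -0.67 and 0.07 (log2) in pairs 29, 64, 66 and 94. C1qc gave differences of -0.02, 0.60, -0.52 and 0.28 in the same order. C1qb on 1434366_x_at gave -0.84, 0.27, -0.97 and -0.30. Pair 94 had the lowest C1qa and C1qc of the 4 pairs in both its tumours. Mean pair differences were -0.07 ± 0.57 (SD, n = 4 pairs) for C1qa and 0.09 ± 0.48 for C1qc, with a two-sided exact sign permutation p of 0.875 and 0.75. For the C1qb probe sets the means were -0.19, -0.46 and -0.65, with exact p of 0.75, 0.25 and 0.25, where 4 pairs cannot go below 0.125. The mean log2 level of the 21 macrophage markers described below moved by -0.21, 0.58, -0.45 and 0.05 in the same pairs.

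Primary tumours and cell lines also share 3 numbers. Over all probe sets these lines did not resemble the tumour of their number (correlations of deviations from 0.0165 to 0.0471), so they were not taken as pairs, and their values are a description. C1qa was 10.42, 11.08 and 11.20 (log2) in primary tumours 176, 179 and 182, and 3.64, 3.76 and 4.09 in the lines of those numbers. Mean differences between samples of the same number, line minus primary, were -7.07 ± 0.27 (SD, n = 3) for C1qa, -6.96 ± 0.39 for C1qc and -5.45 ± 0.46 for C1qb on 1434366_x_at.

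**Figure D2:**
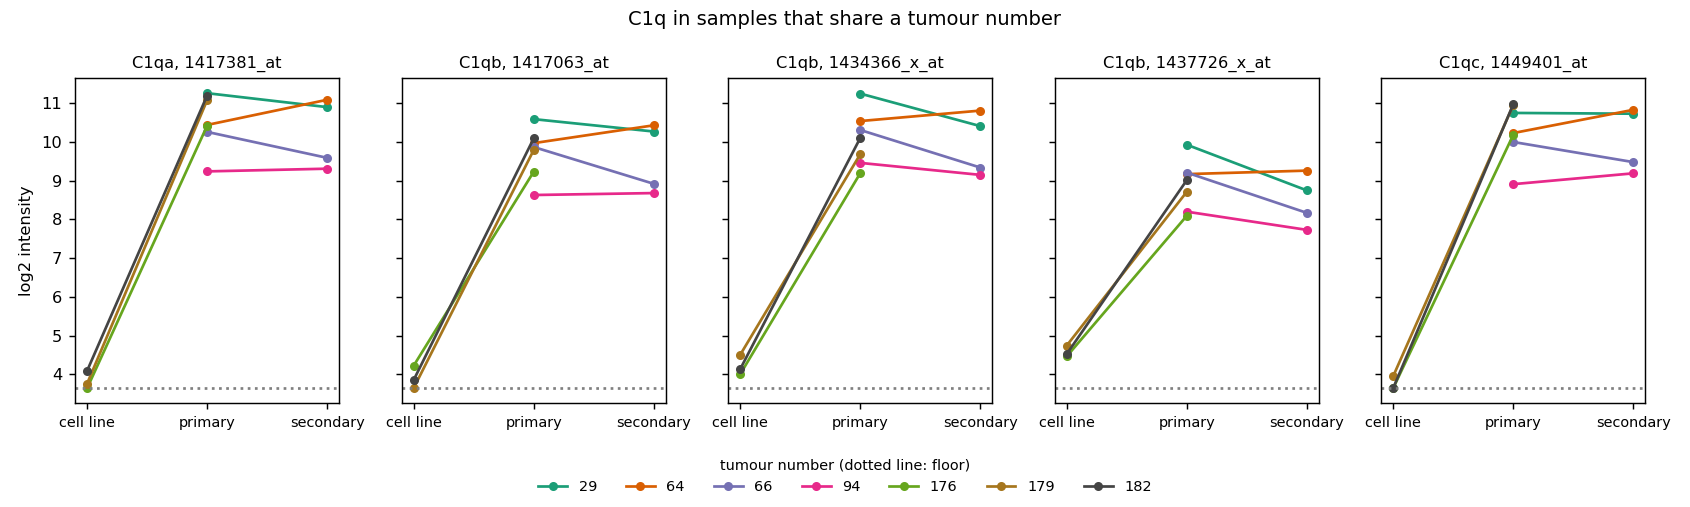
Log2 intensity of each C1q probe set (vertical axis) in samples sharing a tumour number, with lines joining a primary tumour (centre) to the cell line (left) or secondary tumour (right) of its number; the dotted line is the floor. All 3 lines fall steeply from tumour to cell line, whereas the 4 tumour pairs move up or down by less than 1.2 on the log2 scale.

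Among the primary tumours C1q varied 4.83-fold to 6.25-fold over the 5 probe sets, and the subunits moved together. Highest to lowest intensity was 5.45-fold for C1qa, 5.85-fold for C1qb (1434366_x_at) and 6.25-fold for C1qc. Ordered by the mean log2 of the 3 subunits, tumours 12 (11.66), 87 (11.58) and 29 (11.08) were highest and tumours 176 (9.93), 353 (9.83) and 94 (9.20) lowest. This order includes the shift of C1qb between array sets described below. By C1qa alone tumours 94, 119 and 353 were lowest, by C1qc alone 94, 353 and 188, and by C1qb alone the high-ratio tumours 176, 353 and 188. Tumours 12 and 87 were the highest pair on each subunit. Tumour 94 was the lowest primary tumour for C1qa and C1qc.

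C1qa and C1qc followed each other closely across the 15 primary tumours, and C1qb followed them less closely. Pearson's r was 0.973 between C1qa and C1qc (permutation p = 2e-05, the smallest the 100000 permutations give, adjusted over 3 pairs 6e-05; Spearman's rho 0.846, p = 8e-05). Between C1qa and C1qb on 1434366_x_at r was 0.661 (permutation p = 0.00574, adjusted 0.00574; rho 0.568, p = 0.0309), and between C1qb and C1qc 0.688 (permutation p = 0.00296, adjusted 0.00444; rho 0.636, p = 0.0126). Without the 2 tumours farthest from the median of the first-named gene, r was 0.947 for C1qa and C1qc (tumours 94 and 12 left out, permutation p = 8e-05). In that case it was 0.564 for C1qa and C1qb (adjusted permutation p = 0.0765) and 0.428 for C1qb and C1qc (tumours 12 and 87 left out, adjusted permutation p = 0.13). Neither of these 2 relations passed the test without those tumours. With 1417063_at for C1qb, r was 0.848 with C1qa and 0.882 with C1qc, and with 1437726_x_at it was 0.737 and 0.754.

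The relation of C1qb on 1434366_x_at to the other subunits was closer within each array set than with the sets pooled. Within the 7 primary tumours of the low-ratio set r was 0.999 for C1qa and C1qb (exact permutation p = 0.000397), 0.980 for C1qa and C1qc (exact p = 0.00278) and 0.983 for C1qb and C1qc (exact p = 0.00159). Within the 8 tumours of the high-ratio set the values were 0.834, 0.961 and 0.797 (exact permutation p = 0.00977, 0.00546 and 0.0224). The log2 intensity of C1qb (1434366_x_at) minus that of C1qa was -0.05 to 0.22 in the low-ratio tumours and -1.40 to -0.69 in the high-ratio tumours, with no overlap. Such offsets are read only as shifts between samples, since levels of different probe sets are not comparable. The sets hold different tumours, so a shift between arrays and one between tumours cannot be told apart. For C1qc minus C1qa the ranges of -0.51 to 0.08 and -0.51 to -0.13 overlapped.

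The offsets did not overlap on the other C1qb probe sets either. On 1417063_at the C1qb minus C1qa offset was -0.67 to -0.19 in low-ratio and -1.39 to -0.89 in high-ratio tumours, and on 1437726_x_at -1.44 to -1.04 and -2.47 to -1.88. The 4 secondary tumours, all on low-ratio arrays, lay at -0.67 to -0.63 on 1417063_at, within the low-ratio primary range. On 1434366_x_at they lay between the primary ranges, at -0.50 to -0.16, and on 1437726_x_at at -2.15 to -1.42, which overlaps the high-ratio range. Low-ratio minus high-ratio primary tumours differed by 1.05 ± 0.30 (log2, SE) on 1434366_x_at (limma, adjusted p = 0.0226), the 1 probe set of the 5 called, against 3.44% of all probe sets. The other C1qb probe sets differed by 0.81 (adjusted p = 0.0663) and 0.58 (adjusted p = 0.217), C1qa by -0.10 and C1qc by -0.02. The Gapdh 5′ to 3′ ratio also separated the primary tumours of the sets, as given above. In the 4 secondary tumours it was 0.839 to 1.08, which overlaps the high-ratio primary tumours, and it was highest in secondary tumour 29. The part of this ratio in the C1qb shift was not tested. The contrast with osteoblast cultures was far larger than the shift: 6.55 and 5.50 (log2) on 1434366_x_at with the low-ratio and the high-ratio primary tumours alone.

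**Figure D3:**
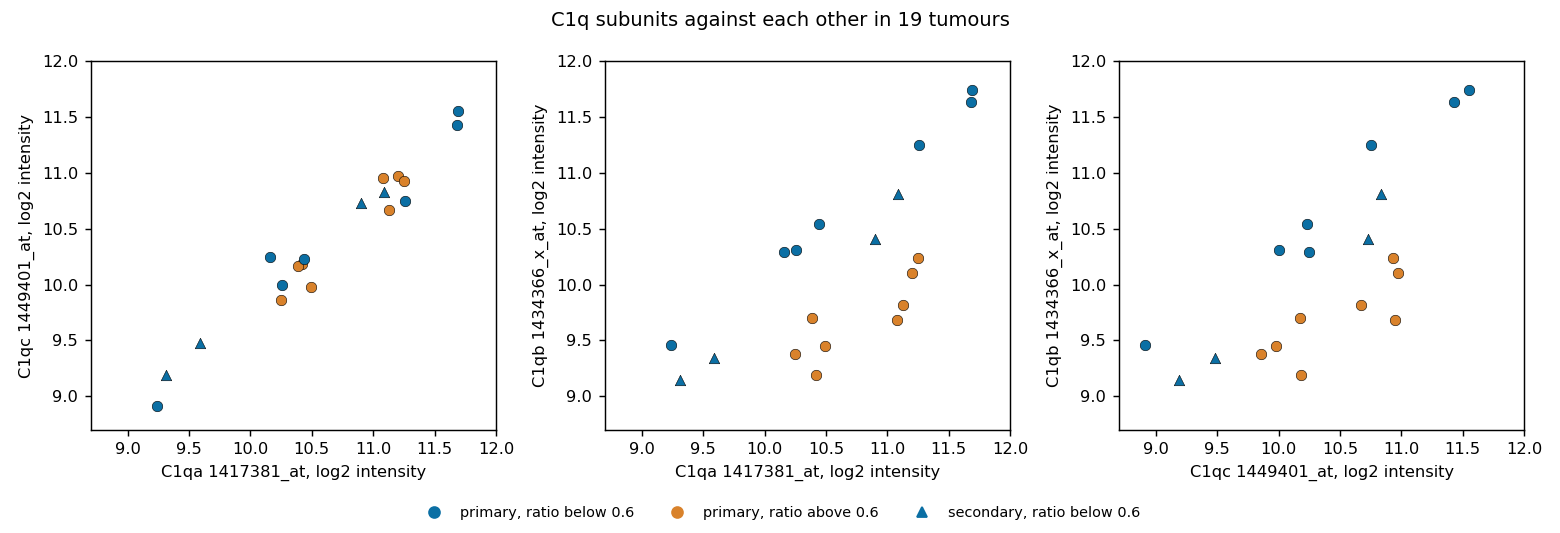
Log2 intensities of C1qa, C1qb (1434366_x_at) and C1qc plotted against each other in 15 primary tumours (circles, coloured by the bioB to bioC ratio of the array) and 4 secondary tumours (triangles). C1qa and C1qc fall on 1 line, while in both panels with C1qb the low-ratio primary tumours lie above the high-ratio ones.

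Other complement genes did not move in a single direction with C1q. Of 81 complement and C1q-domain genes listed, 68 were named on the array and 48 were tested, of which 9 were called higher and 11 lower in primary tumours than in osteoblast cultures (41.7%, against 18.5% of all genes by their brightest probe set). Their median log2 difference was -0.29, against -0.07 for all genes. In secondary tumours 7 were higher and 10 lower than in the cultures, where 18.8% of all genes were called. In cell lines none was higher and 11 were lower, where 8.01% were called, but these counts depended on the processing. C1qbp was called higher in lines after quantile normalization (1.19, log2) and with a common 75th percentile (1.01). C1qtnf6 was called higher with only the 2 groups in the fit (1.03) or the array set as a term (2.05). Among the lower genes in lines, C1qtnf12 lost its call in 9 alternatives and Cd93 in 4. Primary tumours exceeded cell lines in 10 and were below them in 2, where 11.9% were called. None of the 48 was called between secondary and primary tumours, where limma gave 4 an unadjusted p under 0.05.

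Of the 3 tested classical pathway proteases, which act directly after C1q, none was called higher in tumours. Of all genes, 6.63% were called higher than the cultures in primary and 7.85% in secondary tumours, so none of 3 is near those shares. C1ra, an inner protease of the C1 complex, was 9.89 ± 1.10 (log2, SD) in primary tumours and 10.71 ± 0.10 in the cultures, a difference of -0.82 (limma, adjusted p = 0.22). C1s1, its partner, differed by -0.54 (adjusted p = 0.456). C2, the protease cleaved by C1s, fell by 1.98 on the log2 scale (adjusted p = 0.000397), and in secondary tumours it fell by 2.06 (adjusted p = 0.00216). The list's other 5 genes were not named by the annotation. None of the 4 tested lectin pathway genes was called in primary tumours (2 had an unadjusted limma p under 0.05), nor were C6 and C8g, the tested terminal pathway genes (1 of the 2 had one). With 18.5% of all genes called there, lists this short cannot be set apart from that share.

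In the alternative pathway the genes went in opposite directions. Cfb, the factor B protease, fell by 5.0 (log2; 9.56 ± 0.16 in cultures, 4.57 ± 0.84 in primary tumours, SD; limma, adjusted p = 2.68e-07). Cfp, which encodes properdin, a stabiliser of the alternative convertase made by leukocytes, rose by 1.80 (adjusted p = 2.18e-07). In cell lines Cfb fell by 3.75 relative to the cultures, while Cfp differed by 0.50 (adjusted p = 0.206).

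Complement regulators that were called against the cultures were lower. Of all 12887 genes, 1532 were called lower in primary tumours than in the cultures, 1407 in secondary tumours and 834 in cell lines. Of 8 tested, 5 fell in primary tumours, with log2 differences of -3.95 for Clu (clusterin), -2.41 for Serping1 (the C1 inhibitor), -1.44 for Cd59a (an inhibitor of the membrane attack complex), -1.35 for Cr1l and -1.20 for Cfi (factor I) (limma, adjusted p from 3.64e-09 to 0.0113). Susd4, a complement regulator on cell membranes, was higher by 0.82 (adjusted p = 0.000165), short of the fold of 2. Against the cell lines Cd59a was higher in primary tumours by 1.05 (adjusted p = 0.0339), a call lost without line 179, 182 or 213, under both other scalings and with the array set as a term (0.88). Serping1 lost its call with the low-ratio primary tumours alone, at -2.02 (adjusted p = 0.0512). Cell lines had 5 of the 8 lower than the cultures, among them Clu at -4.63, and secondary tumours had 4. In the lines the call for Cr1l was lost without osteoblast culture 1 or 2 or without line 179, 182 or 213, and that for Cd55, which shields cells from the convertases, without culture 3 or line 176. In secondary tumours the call for Cr1l was lost without tumour 66 or 94. After quantile normalization the counts in the lines and secondary tumours were 2 and 3, and the 5 in primary tumours stayed 5.

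The complement receptors that changed between tumours and osteoblast cultures were higher in tumours. Of all genes, 6.63% were called higher than the cultures in primary tumours and 7.85% in secondary tumours. Of 11 tested, 5 rose in primary tumours: C3ar1 (the C3a receptor) by 3.17, Itgb2 (the beta chain of complement receptor 3) by 2.83, Cd93 (once described as a C1q receptor) by 2.01, Itgam (the alpha chain of complement receptor 3) by 1.88 and Vsig4 (a macrophage receptor for C3 fragments) by 1.06 on the log2 scale (limma, adjusted p from 2.1e-07 to 0.0108). The call for Vsig4 was lost without osteoblast culture 1 (adjusted p = 0.0515) or culture 3 (adjusted p = 0.123). In separate alternatives it was also lost under quantile normalization (0.80) and with the high-ratio primary tumours alone (0.95). With the floor at the 40th percentile Itgam and Vsig4 both fell short, at 0.74 and 0.47. In secondary tumours C3ar1, Itgb2 and Cd93 rose, by 2.82, 2.71 and 1.82. C1qbp and Calr, ubiquitous proteins that bind C1q, differed by -0.31 and -0.27 between primary tumours and cultures and were not called. Against the cell lines C1qbp was lower, with log2 differences of -1.14 in primary tumours (limma, adjusted p = 2.08e-05) and -1.16 in secondary tumours (adjusted p = 0.000366), the latter call being lost without secondary tumour 66.

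Other proteins with the C1q fold showed no shared direction. Of all 12887 genes, 855 were called higher and 1532 lower in primary tumours than in the cultures. Of 18 tested, 3 rose in primary tumours, C1qtnf6 by 2.95, C1ql1 by 1.39 and Caprin2 by 1.12, and 4 fell, with log2 differences of -8.37 for the fat-cell hormone Adipoq, -2.31 for C1qtnf2, -1.60 for Col8a1 and -1.56 for C1qtnf12. Adipoq was 12.79 ± 0.05 (log2, SD) in the osteoblast cultures, and all 4 tested fat-cell markers, Adipoq among them, were lower in tumours and in cell lines than in the cultures. Col8a1 lost its call without osteoblast culture 1 (adjusted p = 0.0569) or 2 (adjusted p = 0.0553), under quantile normalization (adjusted p = 0.0568) and with the high-ratio primary tumours alone. C1ql1 fell short of the fold at the higher floor (0.91), and Caprin2 with the low-ratio primary tumours alone or with the array set as a term (both 0.99).

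**Figure D4:**
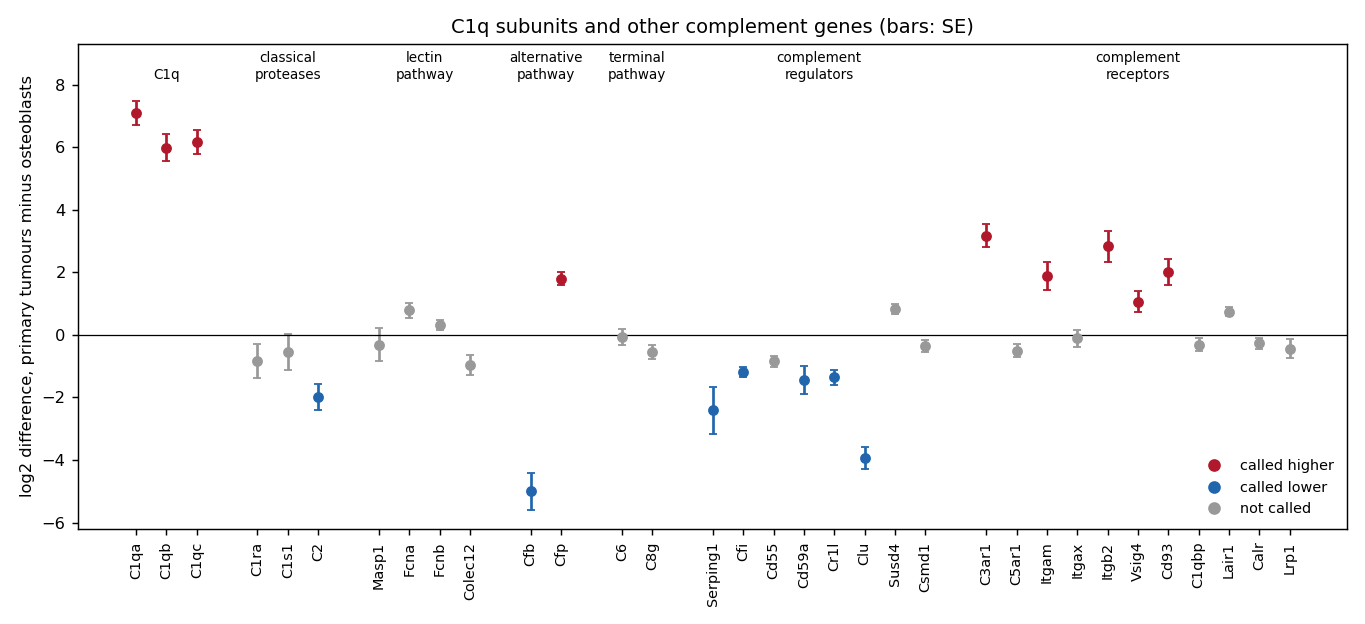
Log2 difference between primary tumours and osteoblast cultures (vertical axis) for the 3 C1q genes, each by its brightest probe set, and the 30 tested complement genes grouped by role; bars are SE and colours show the call. The C1q genes lie between 5.99 and 7.09, above every other complement gene shown.

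The neighbouring genes measured on chromosome 4 did not share the C1q pattern, but of them only Zbtb40 passed the filter on dim probe sets and was tested. Lactbl1 and Epha8 were at or next to the floor in both groups, with means of 3.65 and 3.64 in primary tumours. Zbtb40 differed by -0.06 (log2; limma, adjusted p = 0.80), and its r with the mean of the 3 subunits over primary tumours was 0.206. Ephb2 was not named by the annotation.

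Markers of macrophages were also higher in tumours than in cultured samples. Of 21 tested, 17 were called higher in primary tumours and 14 in secondary tumours than in osteoblast cultures, and 19 were higher in primary tumours than in cell lines. The shares of all genes called higher in these comparisons were 6.63%, 7.85% and 7.08%. None of the 21 was called between secondary and primary tumours, where limma gave 0 an unadjusted p under 0.05. Between cell lines and cultures, where C1q was not called, 834 of all 12887 genes were called lower and 198 higher in the lines. Of the 21 markers 2 were lower in the lines, with log2 differences of -5.11 for Apoe and -1.34 for Maf, and none was higher. Csf1r, the receptor for colony-stimulating factor 1, rose by 4.39 ± 0.39 (log2, SE; limma, adjusted p = 3.67e-09). The lysosomal protease Ctss rose by 5.76, the signalling adaptor Tyrobp by 4.50 and the mannose receptor Mrc1 by 4.11. Cd163 and Trem2 were at the floor in all osteoblast cultures and all cell lines, and Fcgr3 in all cell lines. The mean log2 level of the list was 6.10 to 6.20 in the cultures, 5.68 to 5.84 in the lines, 7.70 to 9.70 in primary and 7.75 to 9.24 in secondary tumours. Apoe, Maf and Lgmn were among the 4 markers not called between primary tumours and cultures, and the cultures themselves had these named ones at 11.07, 9.82 and 9.64. The part of macrophage content in the C1q differences was not tested.

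All 6 pan-leukocyte markers were higher in primary tumours than in cultures, Ptprc (CD45) by 4.12 and Coro1a by 3.70 from the floor. None of the tested markers of dendritic cells (2), T and NK cells (2) or B and plasma cells (1) was called in primary tumours, with 0, 0 and 1 at an unadjusted limma p under 0.05. Of all genes 18.5% were called in this comparison, so lists this short do not show whether those cells were present. Most markers on those lists did not pass the filter on dim probe sets: 5, 9 and 5 were named on the array.

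The genes whose levels most resembled C1q across the 15 primary tumours included 5 members of the list of 21 macrophage markers among the 10 highest and 9 among the 100 highest. Likeness was Pearson's r with the mean log2 of the 3 subunits' brightest probe sets, over 12877 genes, given as a description. The 10 highest were P2ry6 (a nucleotide receptor, 0.905), Csf1r (0.896), Cybb (the phagocyte oxidase subunit, 0.890), Mrc1 (0.883), Adgre1 (a macrophage surface receptor, 0.878), Lyz1 (0.878), Lyz2 (lysozyme, 0.874), the ETS transcription factor Etv5 (0.870), Ctss (0.863) and Ms4a6b (0.860). Lyz1 was read by an _x_at probe set and shares sequence with Lyz2, so the pair may not be separate. The 3 lowest were AU015791 (-0.772), Lama2 (a laminin chain, -0.739) and H2-M10.1 (-0.732). The tumours are split between the array sets. With values centred within the sets, the 10 genes that were highest with the sets pooled had r of 0.855 to 0.912. The r of these genes was 0.881 to 0.989 among the 7 low-ratio tumours and 0.578 to 0.846 among the 8 high-ratio tumours.

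By list, the macrophage markers had a median r of 0.720 with C1q, with 19 of 21 among the 1287 genes of highest r. The median r of all 12877 genes was 0.091. The pan-leukocyte list had a median of 0.669 and the complement receptors 0.427. The classical pathway proteases, at 0.154, the complement regulators, at 0.062, and the other C1q-domain genes, at 0.044, lay near the median of all genes. The mean of the macrophage list itself followed the mean of the 3 subunits with r = 0.929 over the 15 tumours, 0.991 within the low-ratio and 0.777 within the high-ratio set. Tumours 12 and 87 were the highest and tumour 94 the lowest on both measures.

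**Figure D5:**
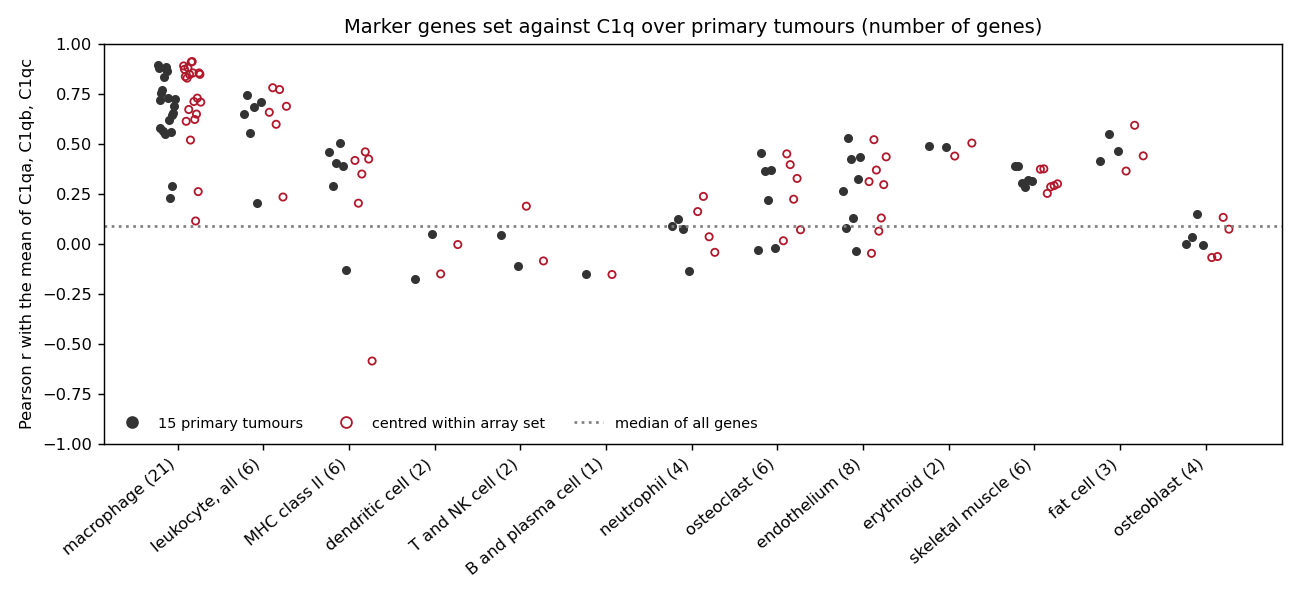
Pearson r of marker genes (vertical axis) with the mean log2 of C1qa, C1qb and C1qc over 15 primary tumours, by cell type list (horizontal axis, number of tested genes in parentheses). Filled points use all 15 tumours, open points values centred within array sets, and the dotted line is the median of all genes at 0.091; macrophage genes reach 0.896.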

How the data were processed

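The table of the whole series holds 1 intensity for each of 45101 probe sets on 26 single-colour arrays. Per the labels' protocols, total RNA was amplified from an oligo-dT primer, labelled with biotin and hybridised. How the authors summarised and scaled the deposited intensities is not given in the sources used here. Their linear scale and close array medians were read from the values. The 64 control probe sets were left out. Probe sets were named from the array's annotation with symbols updated through RefSeq: 34958 had 1 symbol, 932 several and 9211 none.

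Intensities were raised to the floor of 12.5 and put on log2, and probe sets above 52.6 (the median of all values) on at least 3 arrays were kept. 1 fit with limma 3.58.1 in R 4.3.3 covered all 26 arrays and 4 groups, with Benjamini-Hochberg adjustment per comparison. Array precision is limited by the number of arrays. The most alike arrays, osteoblast cultures 1 and 2, had 0.574% identical values, so no array was a duplicate. Permutation tests used scipy 1.17.1.

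Named genes are the members, listed complement genes called in a comparison, and the 10 most and 3 least alike genes. Beyond this rule, marker genes, C1ra, C1s1, C1qbp, Calr, C6, C8g and the chromosome 4 neighbours were named as list members or neighbours. The members and lists were chosen with earlier results of these data known. Secondary and primary tumours of the same number deviated together (r = 0.392, 0.335, 0.233 and 0.625), each secondary tumour correlating best with its own number, so these numbers were taken as pairs. Alternatives covered the floor, filter, scaling, samples in the fit, 1 probe set per gene, each small-group array left out, the number as a block and the array set. Choices made after seeing the data were the comparison between array sets, the set-centred likeness and complement calls with arrays left out.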

Additional observations from a re-analysis of the deposited data

Results flagged for a closer look

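C1qc in the cell lines had 1 value apart from the other 3 on the floored scale: line 179 was at 3.95 (log2), while lines 176, 182 and 213 were at the floor of 3.64. The separation comes from the floor, which makes the other 3 values equal. On the unfloored log2 scale, with intensities of 15.4 against 8.37 to 9.95, the gap was 0.716 of the range, under the critical value of 0.829. All 4 values lie below the array medians.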

How the results depend on the processing

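The 20 calls of C1q probe sets in tumours against cultures and lines held under every alternative that was run, with log2 differences of 3.94 to 7.14 (primary) and 3.19 to 6.89 (secondary). Of 896 alternative values, 882 kept their direction and side of the threshold. The exceptions lie mostly near 0. Line minus osteoblast on 1434366_x_at was -0.05 under quantile normalization and -0.06 to 0.11 with single arrays left out. On 1437726_x_at it was 0.17 with a common 75th percentile, 0.10 with the replicate block over all groups, 0.80 with the array set as a term, and -0.10 to 0.08 with single arrays left out. At a floor at the 40th percentile no line or culture rose above it for some probe sets, and the difference is then 0. Secondary minus primary was 0.09 for C1qc with the number as a fixed block in the same-numbered pairs, and for C1qb on 1434366_x_at it was 0.23 against high-ratio primary tumours and -0.82 against low-ratio ones; neither fit called a C1q probe set, and the block changed no other C1q call. Cell lines correlated at only 0.0165 to 0.0471 with the primary tumour of their number, and none best with its own. Such values do not show whether a line came from that tumour. For primary tumours against lines, the number as a fixed block left all 5 probe sets called among 2389, against 4180 without it, from fewer samples. Correlations without the 2 farthest tumours, 0.564 and 0.428, lost their calls. Calls of correlations were scored on Pearson's r. Under quantile normalization and the 75th percentile, Spearman's rho of C1qa and C1qb was 0.45 (adjusted permutation p = 0.0948 and 0.0944). That of C1qb and C1qc was 0.586 and 0.543 (adjusted permutation p = 0.0368 and 0.0586), and of C1qa and C1qc 0.921 and 0.936. In the high-ratio set rho was 0.643 for C1qb and C1qc (adjusted permutation p = 0.0962) and 0.81 for the other pairs. Markers called were 8 instead of 0 between secondary and high-ratio primary tumours, and 6 instead of 10 between lines and cultures with the set as a term; the cause was not tested. Over all probe sets, secondary against primary tumours gave 1 to 5 calls except 12 with low-ratio and 746 with high-ratio primary tumours alone. Line against osteoblast calls were 20.9% higher as deposited, 31.1% after quantile normalization, 39.3% with a common 75th percentile and 45.8% with the set term. For primary tumours against lines the share was 70.5% and 59% after quantile normalization, and for secondary tumours 73.5%, 57.6% and, with the 75th percentile, 59.8%. Scaling moved the median log2 difference of all probe sets by at most 0.184, far below the C1q differences. Calls lost among complement genes in cell lines included Cfi and Cd55 under both scalings.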

Other observations

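Other cell type lists were set beside C1q over the primary tumours. Of all genes, 6.63% were called higher in primary and 7.85% in secondary tumours than in osteoblast cultures. Of 8 endothelial markers, 6 were higher in primary tumours than in osteoblast cultures, with a median r with C1q of 0.295. Of 6 MHC class II genes, 4 were higher in primary and 5 in secondary tumours, with a median r of 0.396. Of 6 skeletal muscle genes, 5 were higher in primary tumours and none in secondary tumours, with a median r of 0.316. Of 6 osteoclast genes, 1 was higher in primary and 2 in secondary tumours, with a median r of 0.292, and of 4 neutrophil genes 1 was higher in each, with a median r of 0.081. The 4 osteoblast genes, 2 of them higher in primary tumours, had a median r of 0.016, the 3 fat-cell genes ranked here 0.463, and the 2 erythroid genes, with none called in primary tumours, 0.488. These medians are descriptions over 15 tumours, beside 0.091 for all genes.

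When values were centred within the array sets, the gene most like C1q was Slamf9, a receptor of the SLAM family, with r = 0.934, although with the sets pooled it had 0.675 and rank 196. Slamf9 was named after its values were seen.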
